A study of Mus musculus with 4 samples.

Results

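The 8 genes examined here make, sense and export cholesterol: Hmgcs1, Idi1, Fdft1, Sqle and Lss of the synthesis pathway, Srebf2 and Insig1 of its control, and Abca1 of efflux. The rule names them and uses no measured value, but they were proposed with earlier results of these data known. They are 8 of the 55401 genes quantified. All 8 passed the filter on low values (a mean of at least 0.1 FPKM, a fragment count corrected for transcript length and library depth), as did 18596 genes in all. None of the 8 is a gene of cholesterol uptake; genes of uptake are described below from a wider list of 55 pathway genes.

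RNA was taken from tibial bone marrow of wild-type male C57/B6 mice that were put on a high-fat diet (HFD) at 8 weeks of age to make them obese. The Ob group (n = 2) did not exercise, and the Ob + Exe group (n = 2) ran on a treadmill for 12 weeks. No lean group was analysed here. The labels do not say whether a library is 1 mouse or a pool, so p values refer to the spread between these libraries. The test estimates that spread in part from other genes of like level. The labels name bone marrow as the tissue but also mesenchymal stem cells and fibroblasts; the summed FPKM of 9 markers of those cells was between 105 and 169 over the libraries, against 47962 to 75866 for 9 erythroid markers, so blood cell RNA predominated.

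Cholesterol is built from acetyl-CoA through mevalonate, isoprenoids, squalene and lanosterol. When sterols in the endoplasmic reticulum are low, SCAP escorts the membrane-bound transcription factor SREBP2 to the Golgi, where it is cut and released to switch on sterol synthesis and lipoprotein uptake; when sterols are high, INSIG proteins hold SCAP and SREBP2 back. Oxysterols activate the LXR receptors, which switch on the exporter ABCA1. In marrow, this balance is known for its part in the proliferation and release of blood cells.

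Sequences are shown for 3 genes whose Ob + Exe libraries were both lower than either Ob library, 1 for each role. They lie before the gene start in GRCm38.p6 and come from RefSeq. The set of RefSeq promoters used here held 6 of the 8 genes, so Fdft1 and Sqle were not searched. The stretches are chr13:119690201-119690350 on the plus strand for Hmgcs1, chr5:28071162-28071362 on the plus strand for Insig1 and chr4:53159896-53160045 on the minus strand for Abca1. Capitals mark the SREBP element TCACNCCAC, the CCAAT box and the GC box GGGCGG, on either strand.
Hmgcs1: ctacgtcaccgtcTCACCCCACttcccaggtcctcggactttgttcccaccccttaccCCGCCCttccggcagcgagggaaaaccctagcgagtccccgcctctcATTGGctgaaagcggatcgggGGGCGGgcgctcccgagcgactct
Insig1: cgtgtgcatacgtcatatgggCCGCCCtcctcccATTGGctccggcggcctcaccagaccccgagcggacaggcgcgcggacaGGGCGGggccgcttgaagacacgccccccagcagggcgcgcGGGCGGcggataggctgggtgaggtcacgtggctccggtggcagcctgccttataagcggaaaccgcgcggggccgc
Abca1: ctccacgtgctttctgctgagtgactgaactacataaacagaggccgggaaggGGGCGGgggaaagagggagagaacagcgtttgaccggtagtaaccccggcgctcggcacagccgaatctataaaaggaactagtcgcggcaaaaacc
Over the whole 300-base windows (250 bases before to 50 after the start), the SREBP element was found in 1 of the 6 promoters, that of Hmgcs1, with the letters TCACCCCAC, and in 1.24% of all 32851 promoters. The CCAAT box was found in 5 of the 6, all but Abca1, against 37.4% of all promoters. The GC box was found in all 6, against 35.7%. No matches overlapped, and a match of letters says nothing of binding in these samples.

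An intron of Srebf2 holds the hairpin of miR-33, a microRNA known to target Abca1. Its 5′ arm, at chr15:82198127-82198147 on the plus strand, is shown with its seed (bases 2 to 8) in capitals.
miR-33-5p: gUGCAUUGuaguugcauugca
The hairpin gene Mir33 was listed at 0 in all 4 libraries. These libraries were made from polyadenylated RNA, so the mature microRNA was not measured, and its host gene is given below.

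Gene positions below are in GRCm38, as the deposited tables give them. Values are scaled FPKM, that is FPKM divided by a factor per library that ranged from 0.940 to 1.04. The libraries held between 44310505 and 53038186 read equivalents (coverage times length over 150 bases). Genes above 0 numbered between 20663 and 23309 in Ob and between 17752 and 19291 in Ob + Exe, while genes at 1 FPKM or more numbered between 12080 and 12547. Across genes, 696 were called by limma, that is at log2 fold changes beyond 1 with an unadjusted p below 0.05, of which 73.3% were lower in Ob + Exe (62.8% after quantile normalization). No gene had an adjusted p under 0.05 (limma with Benjamini-Hochberg adjustment), and the smallest was 0.739.

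Fold changes are of Ob + Exe against Ob on the log2(scaled FPKM + 0.1) scale, which understates the change of low genes. None of the 8 genes was called by limma, against 3.74% of all genes tested (2.74% lower in Ob + Exe), and none by limma voom on read equivalents, against 2.47%. Insig1 alone had an unadjusted p under 0.05, against 5.05% of all genes (3.48% lower in Ob + Exe). By sign, 7 of the 8 fold changes were below 0 and 1 above, against 51.7% of all genes below 0. In 4 genes (Hmgcs1, Fdft1, Insig1 and Abca1) each Ob + Exe library was lower than each Ob library, which held for 18.3% of all genes; no member had each higher, which held for 14.3%. The median log2 fold change was -0.31 over the 8 genes, 0.07 over the 44 other pathway genes tested and -0.02 over all genes. As the 8 genes were proposed with earlier results of these data known, these shares are a description only. With 2 libraries against 2, an exact two-sided permutation test of a single gene cannot go below p = 0.333. In bulk marrow, fewer cells of a type and less RNA per cell cannot be told apart.

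**Figure D1:**
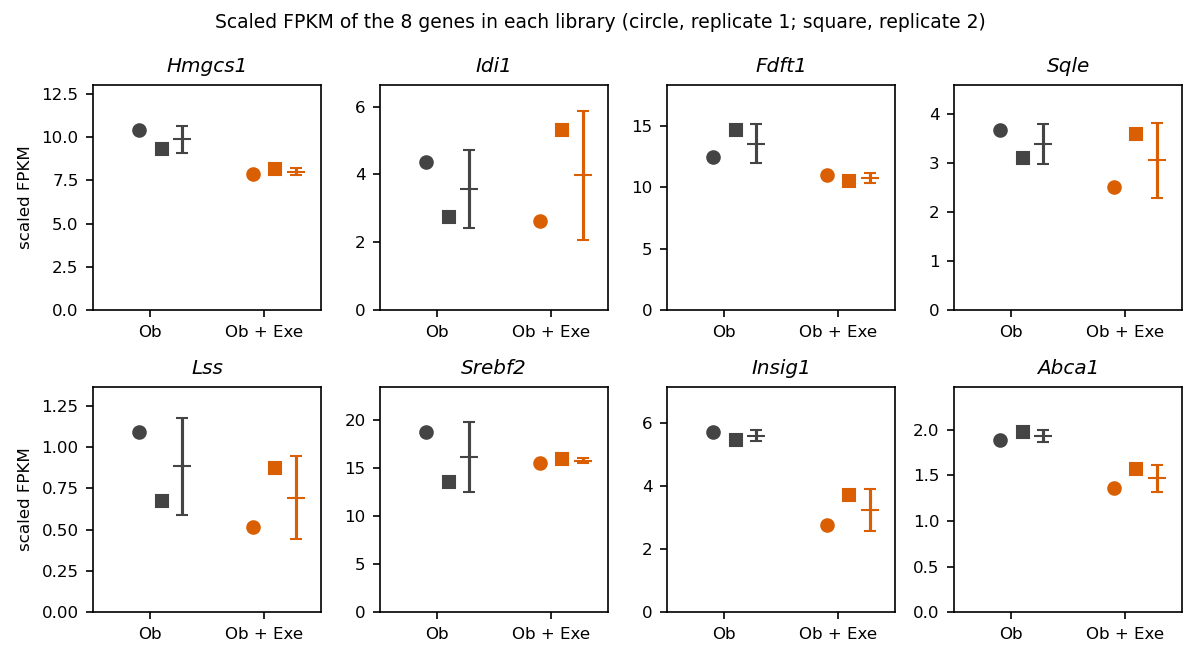
Scaled FPKM (y axis, from 0) of each of the 8 genes in the 2 Ob and 2 Ob + Exe libraries; circles are replicate 1, squares replicate 2, and the bar beside them the mean ± SD. The groups are apart in Hmgcs1, Fdft1, Insig1 and Abca1 and overlap in Idi1, Sqle, Lss and Srebf2.

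Per length of transcript, the 8 genes spanned a wide range of levels. Srebf2 was highest with a mean of 16.0 scaled FPKM over the 4 libraries, followed by Fdft1 (12.2), Hmgcs1 (8.94), Insig1 (4.42), Idi1 (3.77), Sqle (3.23), Abca1 (1.70) and Lss (0.789). The ranges over the libraries overlapped between Srebf2 and Fdft1, between Insig1 and Idi1 and between Idi1 and Sqle, so the order of those neighbours is not resolved. Fdft1 lay above Hmgcs1 in all 4 libraries, and so did Hmgcs1 above Insig1, Sqle above Abca1 and Abca1 above Lss. The mean of Srebf2 was at the 78.2 percentile of the genes tested and that of Lss at the 30.2 percentile. Lss, which closes the sterol rings, thus had the lowest level of the 8.

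Hmgcs1 (ENSMUSG00000093930.2, chr13:119690379-119708260) encodes the cytosolic synthase that makes HMG-CoA, the precursor of mevalonate. Scaled FPKM of Hmgcs1 was 10.4 and 9.33 in Ob against 7.85 and 8.14 in Ob + Exe. The groups did not overlap: the Ob + Exe libraries were both the lower ones, with means of 8.00 ± 0.210 and 9.88 ± 0.782 (SD, n = 2 each), a difference of -19.1%. The difference did not pass the test (log2 fold change -0.30, SE 0.24, 95% interval -0.89 to 0.29, adjusted p = 0.959, limma).

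Hmgcs1 showed a further difference between libraries at the level of transcripts. In Ob replicate 1, 90.5% of its FPKM was assigned to the protein-coding transcript ENSMUST00000179869.2, which was listed at 0 in the other 3 libraries. There the protein-coding ENSMUST00000224188.1 held 97.1%, 100% and 96.8%. The level used here sums all transcripts of the gene; with the most abundant transcript alone, the log2 fold change was 1.67.

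Idi1 (ENSMUSG00000058258.14, chr13:8885501-8892451) encodes the isomerase that interconverts the isoprenoid units used to build longer chains. Idi1 was at a scaled FPKM of 4.38 and 2.75 in Ob against 2.63 and 5.32 in Ob + Exe. The groups overlapped fully, since the highest and the lowest library were both Ob + Exe. It was the only one of the 8 with a log2 fold change above 0 (0.11, SE 0.46, 95% interval -1.03 to 1.24, adjusted p = 0.987, limma). Without Ob replicate 2 this value was -0.22 and without Ob + Exe replicate 2 it was -0.39, so no direction was held.

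Fdft1 (ENSMUSG00000021273.11, chr14:63145150-63179578, minus strand) encodes squalene synthase, the first enzyme committed to sterols. The 4 libraries gave scaled FPKM of 12.4 and 14.7 in Ob against 11.0 and 10.5 in Ob + Exe. Each Ob + Exe library was lower than each Ob library, with means of 10.8 ± 0.392 and 13.5 ± 1.60 (SD, n = 2 each), a difference of -20.6%. The difference did not pass the test (log2 fold change -0.33, SE 0.23, 95% interval -0.90 to 0.25, adjusted p = 0.959, limma).

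The end of Fdft1 overlaps that of the lysosomal protease gene Ctsb on the other strand, with 774 of its 4227 exonic bases (18.3%) shared. Ctsb was more abundant, at 120 and 127 scaled FPKM in Ob against 149 and 137 in Ob + Exe, and lay in the other direction. Whether the counting used strand is not given in the sources used here, so the part of Fdft1 that comes from Ctsb reads was not tested. In Ob + Exe replicate 1, 91.3% of the FPKM of Fdft1 was assigned to ENSMUST00000238526.1, which is not in the GENCODE vM21 annotation used for transcript types. The other 3 libraries had 87.5%, 93.7% and 95.8% on the protein-coding ENSMUST00000054963.9.

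Sqle (ENSMUSG00000022351.14, chr15:59315077-59331192) encodes squalene epoxidase, a rate-controlling enzyme of the pathway. Sqle stood at 3.69 and 3.11 scaled FPKM in Ob against 2.52 and 3.60 in Ob + Exe. The groups overlapped, with Ob + Exe replicate 2 next to the higher Ob library. The log2 fold change was -0.16 (SE 0.35, 95% interval -1.03 to 0.70, adjusted p = 0.977, limma), and it was 0.086 without Ob + Exe replicate 1.

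Lss (ENSMUSG00000033105.12, chr10:76531588-76557138) encodes lanosterol synthase. Scaled FPKM of Lss was 1.09 and 0.677 in Ob against 0.517 and 0.870 in Ob + Exe. The groups overlapped (log2 fold change -0.31, SE 0.56, 95% interval -1.69 to 1.06, adjusted p = 0.975, limma), and the value was 0.012 without Ob + Exe replicate 1. That library rests on 148 read equivalents, all assigned to the retained-intron transcript ENSMUST00000162848.1, with the coding transcript ENSMUST00000048678.6 listed at 0. In the other 3 libraries the coding transcript held 51.0%, 50.5% and 54.8% of the FPKM. Lss had the fewest read equivalents of the 8 genes in every library.

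**Figure D2:**
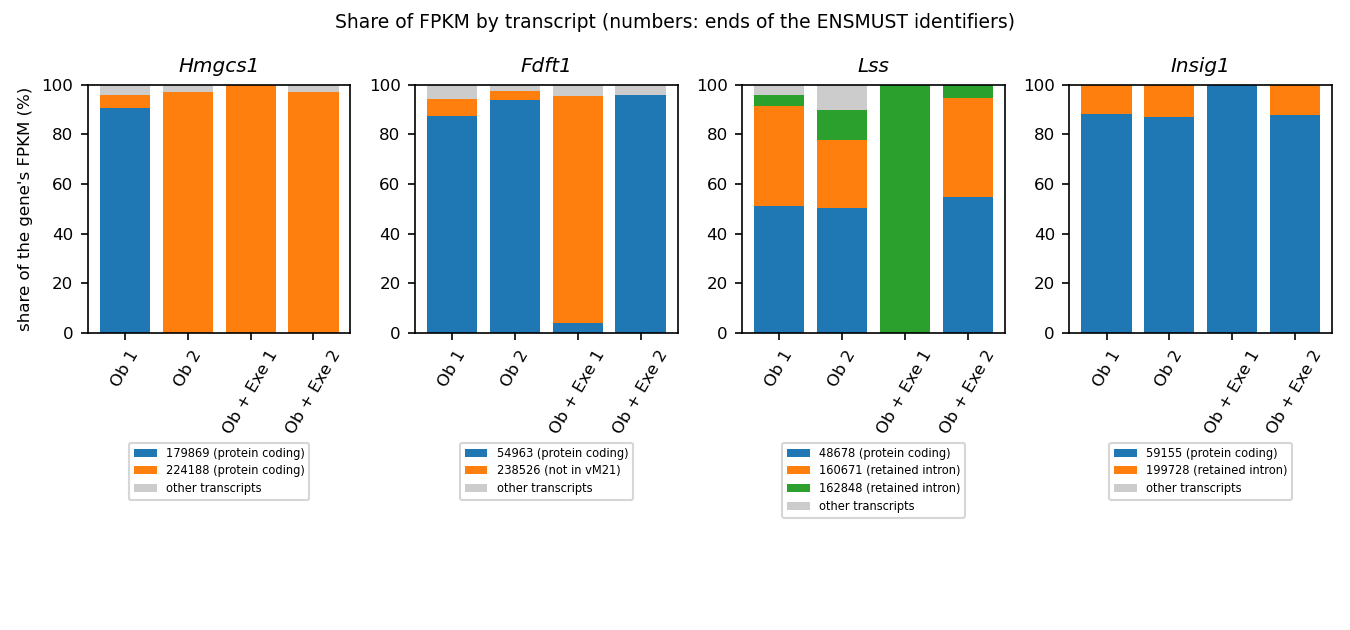
Share (%) of each gene's FPKM assigned to each transcript, 1 bar per library, for Hmgcs1, Fdft1, Lss and Insig1. The leading transcript differs in Ob replicate 1 for Hmgcs1 (90.5% on the blue transcript) and in Ob + Exe replicate 1 for Fdft1 (91.3% on the orange one) and Lss (100% on the green one), while Insig1 keeps 87.0% or more on 1 transcript.

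Summed over the 5 enzymes, the level was 32.0 and 30.5 scaled FPKM in Ob against 24.5 and 28.4 in Ob + Exe. In this sum the groups did not overlap, Ob + Exe being lower, and Hmgcs1 and Fdft1 contribute most to it. The mean of the log2 values, which weights the enzymes equally, was 2.28 and 1.99 in Ob against 1.72 and 2.15 in Ob + Exe, and there the groups overlapped.

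Srebf2 (ENSMUSG00000022463.8, chr15:82147181-82205379) encodes SREBP2. Srebf2 was at a scaled FPKM of 18.8 and 13.6 in Ob against 15.6 and 16.0 in Ob + Exe. Both Ob + Exe libraries lay between the Ob libraries, and the log2 fold change was -0.02 (SE 0.25, 95% interval -0.64 to 0.60, adjusted p = 0.994, limma). It was 0.21 without Ob replicate 1. Srebf2 is itself controlled mainly by cleavage of its protein, which these data do not measure. The coding transcript ENSMUST00000023100.7 held between 77.9% and 85.6% of its FPKM.

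Insig1 (ENSMUSG00000045294.11, chr5:28071363-28078662) encodes an anchor that retains SCAP and SREBP2 in the endoplasmic reticulum; it is also a target gene of SREBP2. In scaled FPKM, Insig1 was 5.72 and 5.48 in Ob against 2.78 and 3.71 in Ob + Exe. The groups were well apart: the mean was 5.60 ± 0.173 in Ob and 3.24 ± 0.659 in Ob + Exe (SD, n = 2 each), a difference of -42.1%. This was the widest difference of the 8 genes (log2 fold change -0.78, SE 0.31, 95% interval -1.55 to -0.02).

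Insig1 had an unadjusted p of 0.0458 and an adjusted p of 0.959 (limma), and ranked 849 of 18596 genes by p. Its fold change did not reach 1 on the log2 scale, so it was not called. The direction held in all 16 alternatives, between -0.99 and -0.58, while the unadjusted p ranged from 0.0288 to 0.199 and the adjusted p from 0.373 to 1. The unadjusted p was over 0.05 in 9 alternatives. Of these, 3 left out a library: Ob replicate 1 (log2 fold change -0.75, p 0.199), Ob replicate 2 (-0.81, p 0.181) or Ob + Exe replicate 1 (-0.58, p 0.0909). There 1 arm is a lone library that is assumed to vary like the other group, so these p values say little about stability. The coding transcript ENSMUST00000059155.10 held 88.1% and 87.0% of the FPKM in Ob against 100% and 87.7% in Ob + Exe. A retained-intron transcript held the rest. With protein-coding transcripts only, the log2 fold change was -0.69 and the unadjusted limma p was 0.0685.

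Abca1 (ENSMUSG00000015243.4, chr4:53030787-53159895, minus strand) encodes the transporter that loads cholesterol onto apolipoprotein A-I and is a target of LXR. In scaled FPKM, Abca1 was 1.88 and 1.98 in Ob against 1.37 and 1.57 in Ob + Exe. The lower pair of libraries was again Ob + Exe, with means of 1.47 ± 0.146 and 1.93 ± 0.0654 (SD, n = 2 each), a difference of -23.9%. The difference did not pass the test (log2 fold change -0.37, SE 0.39, 95% interval -1.33 to 0.58, adjusted p = 0.964, limma). The coding transcript ENSMUST00000030010.3 held 97.2% or more of its FPKM in each library.

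Libraries of the same group also differed. Ob replicate 1 lay above Ob replicate 2, and Ob + Exe replicate 2 above Ob + Exe replicate 1, in 6 of the 8 genes, all but Fdft1 and Abca1; this held for 29.6% of all genes. On the log2 scale the within-group differences of Idi1 were 0.65 in Ob and 0.99 in Ob + Exe, and those of Lss were 0.62 and 0.65. Both exceed the size of the log2 fold change of the same gene between groups. In Insig1 they were 0.06 and 0.40, below its fold change between groups. In Ob + Exe the difference was small in Hmgcs1 (0.05) and Srebf2 (0.04). This order of the libraries was chosen after seeing the data.

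The summed level of 10 neutrophil markers followed the same order, with 49507 and 28238 scaled FPKM in Ob against 36881 and 66373 in Ob + Exe, and 7 of the 10 showed it singly. The summed erythroid markers were 63820 and 58516 in Ob against 47962 and 75866 in Ob + Exe, but Hbb-bs alone ranged from 17525 to 43732, and 3 of the 9 (33.3%) had this order singly, near the share of all genes. The mean of their log2 values did not have it (9.83 and 9.87 against 9.56 and 10.1). The summed proliferation markers (9 genes) were 1147 and 1261 in Ob against 1048 and 1199 in Ob + Exe. Of these 9, 7 had fold changes below 0. Each Ob + Exe library was lower than each Ob library in 4 (44.4%, against 18.3% of all genes) and higher in 1 (11.1%, against 14.3%). The part of cell composition in the levels of the 8 genes was not tested.

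**Figure D3:**
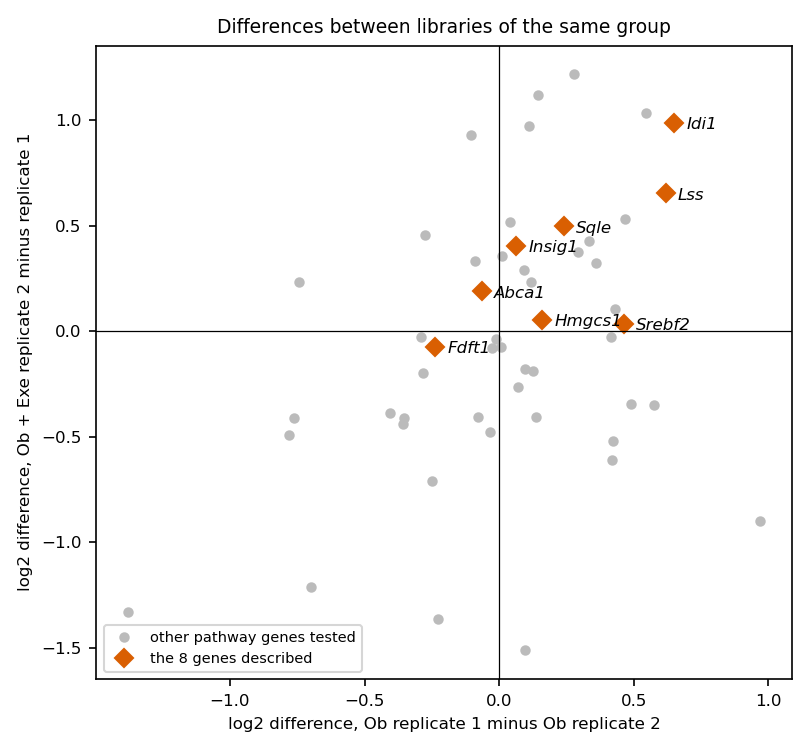
Log2 difference between the libraries of 1 group, for the 8 genes (orange diamonds) and the other 44 pathway genes tested (grey). The x axis is Ob replicate 1 minus Ob replicate 2. The y axis has the reverse order, Ob + Exe replicate 2 minus Ob + Exe replicate 1. Among the 8 genes, 6 lie in the upper right part, with Idi1 (0.65 and 0.99) and Lss (0.62 and 0.65) farthest out.

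Some marker lists of other marrow cells did not overlap between the groups in the mean of their log2 values, but did overlap in their sums. The mean over 6 megakaryocyte markers was 5.27 and 5.18 in Ob against 4.80 and 3.80 in Ob + Exe, and all 6 fold changes were below 0; the sums were 458 and 334 against 373 and 139. The mean over 8 B lineage markers was 4.95 and 4.82 against 4.61 and 4.28, with sums of 1583 and 634 against 848 and 897. Over 8 monocyte and macrophage markers the mean was 4.23 and 4.29 against 4.10 and 4.13, with sums of 459 and 402 against 382 and 465, and in this list Adgre1 and Ccr2 were higher in both Ob + Exe libraries. The part of these cells in the differences of Insig1, Hmgcs1, Fdft1 and Abca1 was not tested. The summed level of 6 skeletal muscle markers was 9.56 and 5.82 in Ob against 13.4 and 12.6 in Ob + Exe.

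The wider list holds 55 genes in 5 roles, of which 52 were tested; 3 were below the filter. None was called by limma, and 1, Insig1, had an unadjusted p under 0.05. Fold changes were below 0 in 25 genes and above 0 in 27, with a median log2 fold change of 0.02. Each Ob + Exe library was lower than each Ob library in 9 (17.3% of the 52, against 18.3% of all genes) and higher in 8 (15.4%, against 14.3%). Without the 8 genes, 18 of 44 fold changes were below 0 and 26 above, with a median of 0.07. Of these 44, 11.4% were lower in both Ob + Exe libraries, against 18.3% of all genes, and 18.2% higher, against 14.3%. The shares of the wider list were close to the background only with the 8 genes included.

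Of 21 synthesis genes, 8 fold changes were below 0 and 13 above, with a median of 0.05. The genes of this role outside the 8 with the highest levels were Lbr, a sterol reductase that is also a nuclear envelope protein (198 and 184 against 170 and 333), and Fdps, which makes farnesyl diphosphate for Fdft1 (19.2 and 12.8 against 19.7 and 15.5). In both, the groups overlapped.

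**Figure D4:**
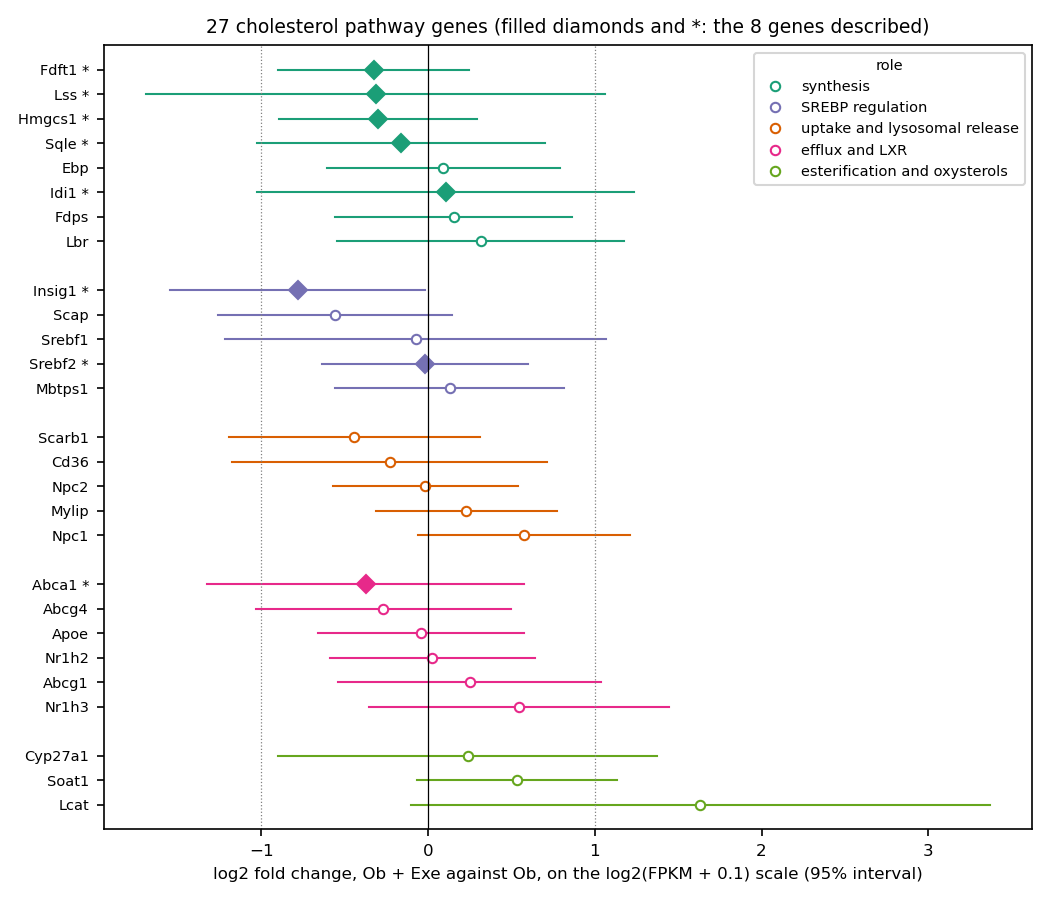
Log2 fold change of Ob + Exe against Ob with its 95% interval (x axis) for 27 of the 52 pathway genes tested, those with values given here, coloured by role; filled diamonds and asterisks mark the 8 genes. Only the interval of Insig1 (-1.55 to -0.02) leaves out 0, and 7 of the 8 diamonds lie left of 0.

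Of 8 genes of SREBP regulation, 7 fold changes were below 0 and 1 above, with a median of -0.10. Besides Insig1, the escort Scap was lower in both Ob + Exe libraries, at 7.95 and 7.23 in Ob against 5.91 and 4.44 in Ob + Exe (log2 fold change -0.56, unadjusted p = 0.0999); it is named here after its values were seen. Mbtps1, the first of the proteases that cut SREBP2, was 15.4 and 10.9 against 16.0 and 12.6. Srebf1, which encodes the fatty acid counterpart of SREBP2, was 11.2 and 13.1 against 18.5 and 7.13. Both overlapped between groups.

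Uptake, which none of the 8 genes represents, was covered by 11 genes of lipoprotein uptake and lysosomal release, with 7 fold changes below 0 and 4 above. Mylip, a ubiquitin ligase switched on by LXR, was 17.5 and 21.4 in Ob against 22.9 and 22.5 in Ob + Exe, above in both and without passing the test (adjusted p = 0.959, limma). Npc1, a lysosomal exporter named after its values were seen, was 4.90 and 4.95 against 7.48 and 7.30 (unadjusted p = 0.0688). The lysosomal carrier Npc2 (44.0 and 46.4 against 51.4 and 38.8) and the scavenger receptor Cd36 (47.2 and 42.6 against 25.9 and 56.4) overlapped between groups.

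Of 7 genes of efflux and LXR, 3 fold changes were below 0 and 4 above, with a median of 0.03. Abca1 was the only one of the 7 whose groups did not overlap. That is 14.3% lower in both Ob + Exe libraries, against 18.3% of all genes, and 0% higher, against 14.3%. Abcg1, the exporter to formed HDL and like Abca1 an LXR target, was 3.96 and 5.11 in Ob against 6.27 and 4.60 in Ob + Exe. Nr1h3, which encodes LXR alpha, was 3.65 and 6.25 against 8.11 and 6.07, and Apoe, a secreted acceptor of cholesterol, was 79.5 and 105 against 102 and 77.7. Nr1h2, which encodes LXR beta (30.6 and 39.1 against 40.6 and 30.6), and the exporter Abcg4 (13.9 and 23.3 against 13.8 and 16.2) also overlapped. None of these genes shared the lower level of Abca1 in both Ob + Exe libraries.

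All 5 genes tested of esterification and oxysterols had fold changes above 0, with a median of 0.53, and none was called. Soat1, which esterifies cholesterol for storage, was 9.50 and 10.1 scaled FPKM in Ob against 12.7 and 16.0 in Ob + Exe (log2 fold change 0.53, unadjusted p = 0.0728). Lcat, which esterifies cholesterol on HDL and is named after its values were seen, was 0.373 and 1.13 against 3.65 and 1.39, the only pathway gene beyond 1 on the log2 scale (1.63, unadjusted p = 0.0608). Lcat rests on 34 to 288 read equivalents per library, and its fold change was 0.94 without Ob replicate 1, 0.97 without Ob + Exe replicate 1 and up to 2.32 without another library. Cyp27a1, the sterol 27-hydroxylase, was 12.5 and 20.4 against 28.8 and 12.4 and overlapped between groups.

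Among 44 pathway genes outside the 8, those with patterns over the 4 libraries most like the mean of the 5 enzymes included Scarb1 (root mean square difference of centred log2 values 0.142) and Ebp (0.146). Scarb1 encodes the HDL receptor and Ebp a sterol isomerase. Scarb1 was 15.1 and 10.9 scaled FPKM in Ob against 7.82 and 11.3 in Ob + Exe, with the same high Ob replicate 1 and low Ob + Exe replicate 1 as Lss. With 4 libraries this likeness is a description only.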

How the data were processed

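Poly-A RNA of tibial bone marrow was sequenced in 2 Ob and 2 Ob + Exe libraries as paired reads of 150 bases. The authors used fastp to trim reads, left out rRNA reads, and used HISAT2 for alignment to GRCm38, SAMtools for filtering and StringTie with GENCODE vM25 for quantification; the submitters' processing notes also name FastQC. Tool versions are not given in the sources used here. The authors deposited, for each of 142604 transcripts per library, the read coverage (not normalized for depth) and the FPKM (normalized for length and depth). The authors' own test was DESeq2, which needs read counts and was not used here.

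FPKM were summed over the transcripts of each gene, divided by median-of-ratios size factors, and kept where the mean was at least 0.1, which left 18596 genes. Log2(scaled FPKM + 0.1) was tested between groups with limma 3.58.1 (eBayes with an intensity trend) in R 4.3.3, with 2 residual and 3.79 prior degrees of freedom and Benjamini-Hochberg adjustment over all genes. Calls used the authors' thresholds, a log2 fold change beyond 1 with an unadjusted p below 0.05. The test was tested on simulated data. Coverage times length over 150 gave read equivalents, which are not whole reads. They ranged from 44310505 to 53038186 per library. Transcript types came from GENCODE vM21 and sequences from RefSeq (GRCm38.p6). Python 3.11.15 with pandas 2.3.3 handled the tables and matplotlib 3.10.9 drew the figures.

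The members and lists were chosen with earlier results of these data known. The text names the 8 genes; any called pathway gene; Abcg1, Nr1h3, Apoe, Mylip and Mir33; the 2 other genes with the highest mean in each role; and the 3 pathway genes most like the mean of the 5 enzymes. Some genes that this rule names are not reported here, and counts over the list include them. Alternatives varied the filter, pseudocount, scaling, test, variance trend, replicate block, libraries and transcripts used.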

Additional observations from a re-analysis of the deposited data

How the results depend on the processing

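None of the 8 genes was called by limma under any of the 16 alternatives, and with 2 libraries per group small differences could not be resolved. Leaving out 1 library leaves an arm of 1, assumed to vary like the other group. Protein-coding transcripts only and the crossed replicate block were chosen after seeing the data. The number of genes called was 696, and 270 at a minimum mean FPKM of 1 (where Lss was not tested), 224 with a pseudocount of 1, 459 with limma voom, 1060 without an intensity trend, and from 744 to 1920 leaving out 1 library (1260 without Ob + Exe replicate 1, 1920 without Ob + Exe replicate 2). Called pathway genes numbered 0, and 1 with quantile normalization (Lcat) and with limma voom (Tm7sf2), and from 0 to 2 leaving out 1 library (Mbtps2 and Soat2, without Ob + Exe replicate 2); these genes were named after their values were seen.

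The median log2 fold change of the 52 pathway genes was 0.02, and -0.070 with no scaling, -0.034 with the most abundant transcript only, -0.050 with protein-coding transcripts only, and from -0.052 to 0.053 leaving out 1 library. Over the 8 genes it was -0.31, and from -0.40 to -0.13 leaving out 1 library. With the most abundant transcript only, Hmgcs1 was at 1.67, Fdft1 at -2.41 and Lss at -1.20, in each of which the leading transcript changed between libraries. Leaving out 1 library gave ranges of -0.25 to 0.21 for Srebf2, -0.39 to 0.60 for Idi1, -0.41 to 0.086 for Sqle and -0.64 to 0.012 for Lss. The direction of Fdft1, Insig1 and Abca1 was the same in all 16. Where no value is tied to a change, the cause was not tested.

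The labels give the libraries of both groups the numbers 1 and 2, but do not say that a number marks a shared batch. Between groups, the differences between replicates 1 and 2 correlated at -0.11 over all genes tested. Over genes with a mean of at least 1 the value was -0.24. Whether a number marks a shared batch was not tested. The replicate block gave 740 called genes, with 18 at an adjusted p under 0.05; 1 pathway gene (Lcat) was called, and Insig1 had an unadjusted p of 0.109. With the numbers crossed, 803 genes were called, among them 1 pathway gene, and 11 had an adjusted p below 0.05.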

Other observations

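Markers of other marrow cell types were measured beside the 8 genes. Fabp4, a fatty acid carrier of adipocytes and some macrophages, was 59.5 and 57.3 scaled FPKM in Ob against 104 and 78.5 in Ob + Exe (log2 fold change 0.63, unadjusted p = 0.0312, adjusted p = 0.959, limma). Adipoq, the adiponectin gene, overlapped between groups (4.05 and 5.93 against 4.09 and 8.74), and Lep was at 0 in all 4 libraries. Of the 6 adipocyte markers, 4 were tested, with 2 fold changes below 0 and 2 above. Among the markers called by limma, Gp1bb of megakaryocytes was 10.6 and 11.2 in Ob against 2.17 and 4.44 in Ob + Exe, and Cd79a of B cells 48.4 and 44.4 against 21.4 and 23.6. Col1a1 of fibroblasts was 3.14 and 3.04 against 1.17 and 1.85, in a list with 5 fold changes below 0 and 4 above, where Dcn was 3.42 and 3.60 against 4.33 and 6.42. Acta1 of skeletal muscle, also called, was 2.58 and 0.998 against 4.62 and 5.29. These genes were named after their values were seen, and none had an adjusted p under 0.05. In T and NK cell markers, 2 of 6 fold changes were below 0, and in stem and progenitor markers 5 of 6; none of either list was called.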
